A study of Homo sapiens with 8 samples.

Results

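The BTG/TOB genes measured here were BTG1, BTG2, BTG3, TOB1 and TOB2, and they were described together with LINC01619, a long noncoding RNA gene that overlaps BTG1 on the same strand. These 6 of the 78932 genes in the deposited tables were taken by their Ensembl identifiers. The 5 BTG/TOB genes entered by family name, but with earlier results of these data known. Their p-values and medians do not account for that choice. LINC01619 was chosen by its rise in sense counts with dTAGV1, the largest among genes already named for this comparison, so that rise is given as a description without a test.

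All 8 libraries came from HCT116, a human colorectal cancer cell line, carrying a dTAG degradation tag on NUDT21, and all cells had received JTE-607, an inhibitor of the cleavage endonuclease CPSF73. The groups were 4 libraries with DMSO, the solvent control, and 4 with dTAGV1, the compound that directs tagged NUDT21 to degradation. No group without JTE-607 was analysed here, doses and times are not given in the sources used here, and nothing in the labels says whether replicates came from separate cultures or whether the tagged line is 1 clone. The p-values therefore measure only the spread between these libraries, which may be technical.

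BTG/TOB proteins share an amino-terminal domain that binds the CNOT7 and CNOT8 deadenylases of the CCR4-NOT complex, which shortens poly(A) tails. TOB1 and TOB2 also bind the poly(A)-binding protein PABPC1, and the family is known for slowing cell proliferation. NUDT21 is the small subunit of cleavage factor Im, which recognises UGUA ahead of poly(A) sites in new transcripts and takes part in the choice of site. The read-out was a count of reads near transcript 3′ ends, primed on poly(A) tails.

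The last bases of the annotated transcripts are shown because both the treatment and the assay act there. They were read from GENCODE 29 transcripts on GRCh38 and run 5′ to 3′. Capitals mark the last match to AATAAA or ATTAAA, hexamers of poly(A) signals, in the last 50 bases.
BTG1, chr12:92140280-92140309, minus strand: gtccaagataggAATAAAaaaatgtagttc
BTG2, chr1:203309569-203309598, plus strand: ttttgttactttAATAAAaatgtagtagga
BTG3, chr21:17593659-17593688, minus strand: catgtagttgcaAATAAAaaatagtttgag
TOB1, chr17:50862223-50862242, minus strand: aaattctttaaaATTAAAaa
TOB2, chr22:41433498-41433527, minus strand: ttttaagtttgtATTAAAagcatgatacat
LINC01619, chr12:91984982-91985011, minus strand: tctcaatgagaaAATAAAtgttttattata
BTG1, BTG2, BTG3 and LINC01619 carried AATAAA, and TOB1 and TOB2 carried ATTAAA. The last match started 8 bases from the transcript end in TOB1 and 20 to 24 bases from it in the others. TOB1 also held an earlier ATTAAA, not in capitals above, that started 24 bases from its end. Whether a match serves as the signal of that end was not tested. One or the other hexamer stood in the last 50 bases of 73.6% of 19840 protein-coding genes. TGTA, the DNA spelling of UGUA, was searched on the transcript strand in the last 100 bases. It occurred 4 times in BTG2, 2 times each in BTG3 and TOB2, 1 time each in BTG1 and TOB1, and 0 times in LINC01619. The only TGTA of BTG1 and the last of BTG2 started 10 and 14 bases from the end, past the hexamer in capitals. In BTG3, TOB1 and TOB2 the last TGTA started 34, 27 and 27 bases from the end, before that hexamer. Among all protein-coding genes 50.8% held at least 1 and 18.2% at least 2. These matches describe the annotated ends, and which poly(A) sites the reads came from was not analysed here.

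Each library held 8649238 to 9977205 reads, of which 3447842 to 4291256 were counted on the strand of a gene. Unmapped reads were 27.7% to 28.9% in the DMSO libraries and 20.4% to 30.3% in the dTAGV1 libraries. Levels are given as CPM, the reads of a gene in each 1000000 of its library after TMM scaling, and they are relative to the other poly(A) RNA of the library. The RNA of NUDT21, the tagged gene, averaged 32.2 ± 2.81 CPM in the DMSO group against 8.25 ± 2.62 CPM in the dTAGV1 group (SD, n = 4 each), which does not measure the protein. Of the 7 colorectal epithelial markers, EPCAM, KRT8, KRT18, KRT19, CDH1 and CDX2 were present in both groups. VIL1 was near 0, at 5 and 1 counts in a group of 4 libraries. Of 6 markers of blood, stromal and endothelial cells, PTPRC, CD3E, COL1A2, PECAM1 and CDH5 had 0 to 3 counts in a group, and COL1A1 was at 17.3 ± 2.03 and 13.8 ± 1.77 CPM.

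Within the family, 4 of 5 genes rose with dTAGV1, and no member fell. BTG1 and TOB1 rose most, by 1.34-fold and 1.43-fold, and BTG2 and TOB2 rose by 1.22-fold and 1.16-fold. BTG3 did not pass the test, with a ratio of 1.19. Without DMSO library 1 or 2, without a filter on low counts or with library-size scaling, 2 of the 5 were called. In the same edgeR comparison 29.4% of the 12618 tested genes were higher and 28.5% were lower at a Benjamini-Hochberg adjusted p under 0.05, so that 57.9% were called in either direction. The median log2 fold change was 0.29 over the 5 family genes and 0.01 over all tested genes. The median absolute log2 fold change of all tested genes was 0.42, close to the change of BTG1. Larger increases than that of TOB1 were seen in 20.0% of tested genes, and larger increases than that of TOB2 in 36.6%. In bulk RNA a change in the make-up of the cell population cannot be told apart from a change in RNA per cell.

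**Figure D1:**
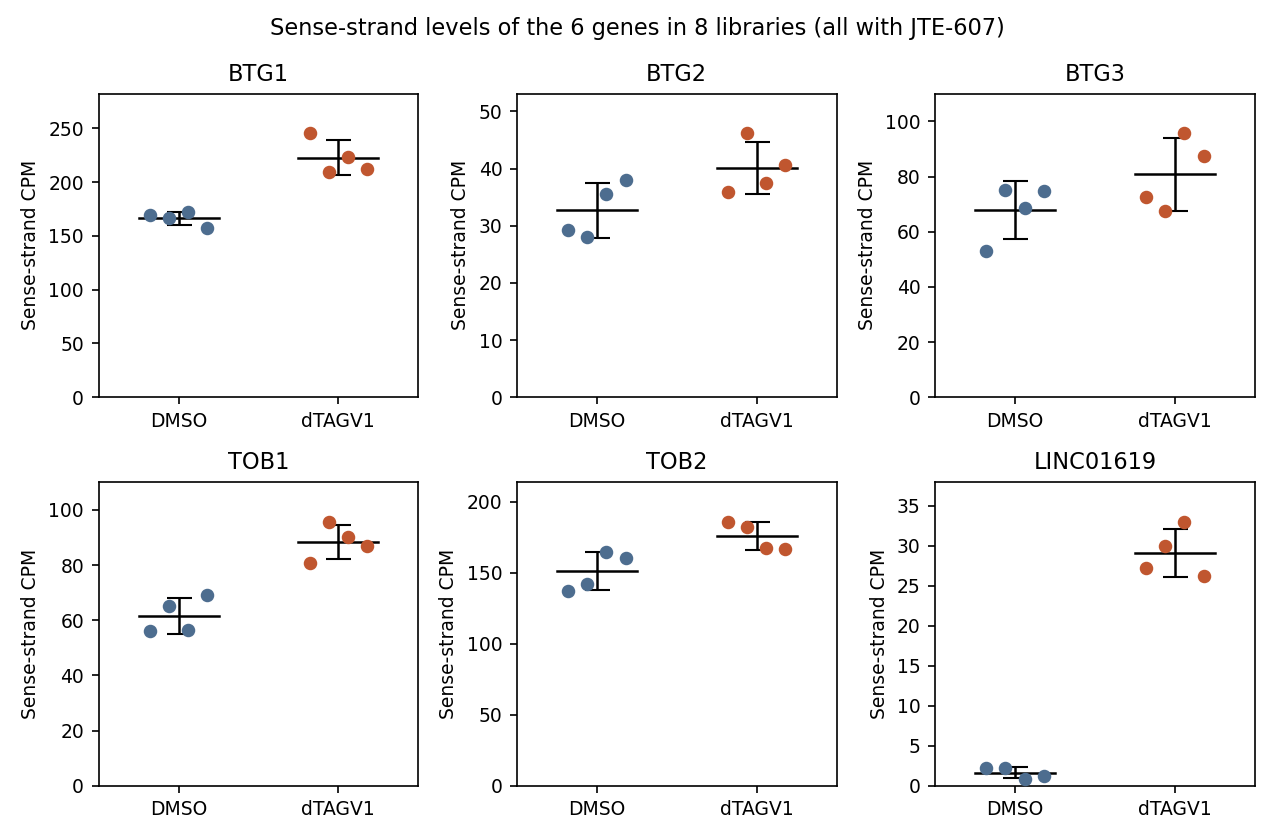
Sense-strand CPM of the 6 genes (y axis, from 0, each gene on its own scale) in the 4 DMSO libraries (blue) and the 4 dTAGV1 libraries (orange). Points are libraries, horizontal bars are group means and whiskers are SD; the groups are apart in BTG1, TOB1, TOB2 and LINC01619 and overlap in BTG2 and BTG3.

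BTG1 encodes the founding member of the family and is expressed in quiescent cells. BTG1 (ENSG00000133639, 12:92140278-92145897) was at 169, 166, 172 and 158 CPM in DMSO libraries 1 to 4. It was at 245, 209, 224 and 212 CPM in dTAGV1 libraries 1 to 4. The DMSO libraries lay close together, and every dTAGV1 library was above all of them, with the first the highest. Group means were 166 ± 6.17 and 223 ± 16.5 CPM (SD, n = 4 each), a log2 difference of 0.42 with an SE of 0.07 (edgeR quasi-likelihood test, adjusted p = 2.56e-05). Groups without overlap and higher with dTAGV1 were found in 25.8% of tested genes.

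BTG2 is an immediate early gene that responds to growth and stress signals. BTG2 (ENSG00000159388, 1:203305491-203309602) was at 29.2, 28.0, 35.5 and 38.1 CPM in the DMSO libraries and at 36.0, 46.2, 37.4 and 40.7 CPM in the dTAGV1 libraries. The groups overlapped, since DMSO library 4 was above dTAGV1 libraries 1 and 3. Means were 32.7 ± 4.87 and 40.1 ± 4.54 CPM, with a log2 fold change of 0.29 (SE 0.12, edgeR adjusted p = 0.0470). This call was lost when any 1 of 6 libraries was left out, namely DMSO 1, 2 or 3 or dTAGV1 2, 3 or 4, with log2 fold changes of 0.24, 0.22, 0.33, 0.21, 0.31 and 0.27 in that order. It was also lost with DESeq2, at a log2 fold change of 0.28 (adjusted p = 0.0905), and with scaling by library size alone, at 0.22 (adjusted p = 0.138).

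BTG3 differs from BTG1 and BTG2 in its longer carboxy-terminal part and has been described as a partner of E2F1. BTG3 (ENSG00000154640, 21:17593653-17612947) was at 53.0, 75.0, 68.6 and 74.9 CPM in the DMSO libraries and at 72.6, 67.4, 95.7 and 87.5 CPM in the dTAGV1 libraries. DMSO library 1 was the lowest of all 8, and dTAGV1 libraries 1 and 2 lay within the DMSO range. Means were 67.9 ± 10.4 and 80.8 ± 13.1 CPM, with a log2 fold change of 0.25 (SE 0.12). The unadjusted p was 0.0460 and the adjusted p 0.0750 (edgeR), so that no change was called. Without dTAGV1 library 2 the log2 fold change was 0.31 and passed (adjusted p = 0.0294). Without DMSO library 1 or dTAGV1 library 3 it was 0.15 in both cases (adjusted p of 0.271 and 0.308).

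TOB1 and TOB2 are the longer members, whose carboxy-terminal parts carry the motifs that bind PABPC1. TOB1 (ENSG00000141232, 17:50862223-50867978) was at 56.0, 65.1, 56.3 and 69.0 CPM in the DMSO libraries and at 80.8, 95.8, 90.1 and 86.8 CPM in the dTAGV1 libraries. The lowest dTAGV1 library was well above the highest DMSO library. Means were 61.6 ± 6.49 and 88.4 ± 6.27 CPM, with a log2 fold change of 0.52 (SE 0.09, edgeR adjusted p = 4.63e-05).

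TOB2 (ENSG00000183864, 22:41433492-41447023) was at 137, 142, 165 and 160.2 CPM in the DMSO libraries and at 186, 182, 167 and 167 CPM in the dTAGV1 libraries. The groups did not overlap, but the highest DMSO library and the lowest dTAGV1 libraries were close, at 165 and 167 CPM. Means were 151 ± 13.5 and 176 ± 9.88 CPM, with a log2 fold change of 0.22 (SE 0.08, edgeR adjusted p = 0.0210). The call was lost without DMSO library 1 or 2 or without dTAGV1 library 1 or 2, at log2 fold changes of 0.17, 0.18, 0.18 and 0.19, and with scaling by library size alone, at 0.14 (adjusted p = 0.121). BTG1 and TOB1 kept their calls under each of the 17 alternatives run on them, with log2 fold changes of 0.35 to 0.44 and 0.44 to 0.57.

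Summed over the 5 family genes, the level was 444 to 500 CPM in the DMSO libraries and 594 to 621 CPM in the dTAGV1 libraries. The order of the 3′ counts, which need no length correction, was much the same in both groups. With DMSO it ran BTG1, TOB2, BTG3, TOB1, BTG2 and LINC01619, where BTG1 and TOB2 overlapped and so did BTG3 and TOB1. With dTAGV1 it ran BTG1, TOB2, TOB1, BTG3, BTG2 and LINC01619, where only TOB1 and BTG3 overlapped among neighbours in the order. BTG4, the family member known from oocytes, had 0 counts in all 8 libraries, which allows up to 0.0992 CPM (3 of 30247347 counts, counting error only).

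Whether the relatives moved by unequal amounts was tested on the log2 ratio of each of the 10 pairs, which does not depend on library scaling. None of the 10 differed between groups at an adjusted p under 0.05 or at an unadjusted p under 0.05 (2-sided exact permutation tests, where 4 libraries against 4 cannot give less than 0.0286). The ratio of TOB1 to TOB2 moved most. It was -1.29, -1.12, -1.55 and -1.21 in the DMSO libraries and -1.20, -0.93, -0.89 and -0.94 in the dTAGV1 libraries. Of the dTAGV1 libraries 3 were above every DMSO library, and the first lay inside the DMSO range. The difference was 0.30 (SE 0.12, exact permutation p = 0.0571, adjusted over 10 pairs 0.357). The ratio of BTG1 to BTG2 differed by 0.12 (SE 0.18, exact permutation p = 0.543, adjusted 0.679). After adjustment at least 6 pairs would have had to reach the smallest p, while each gene is in 4 pairs, so a change of 1 gene alone could not pass. These p-values do not show that the relatives moved alike.

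LINC01619 (ENSG00000257242, 12:91984976-92142914) is annotated as a processed transcript that begins inside BTG1 and ends far downstream of it. In GENCODE 29 its exons cover 3642 bases, of which 503 (13.8%) are shared with exons of BTG1. The shared bases lie in the last exon of BTG1, from 0.76 to 2.64 kb before its end. The other 3139 exonic bases all lie downstream of BTG1, from 3257 to 155302 bases past its end. In the layout of STAR's per-gene counts a read that touches exons of both genes is counted for neither. Under this annotation, reads counted for LINC01619 therefore touched an exon downstream of BTG1. The annotation release behind the deposited counts is not given in the sources used here.

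**Figure D2:**
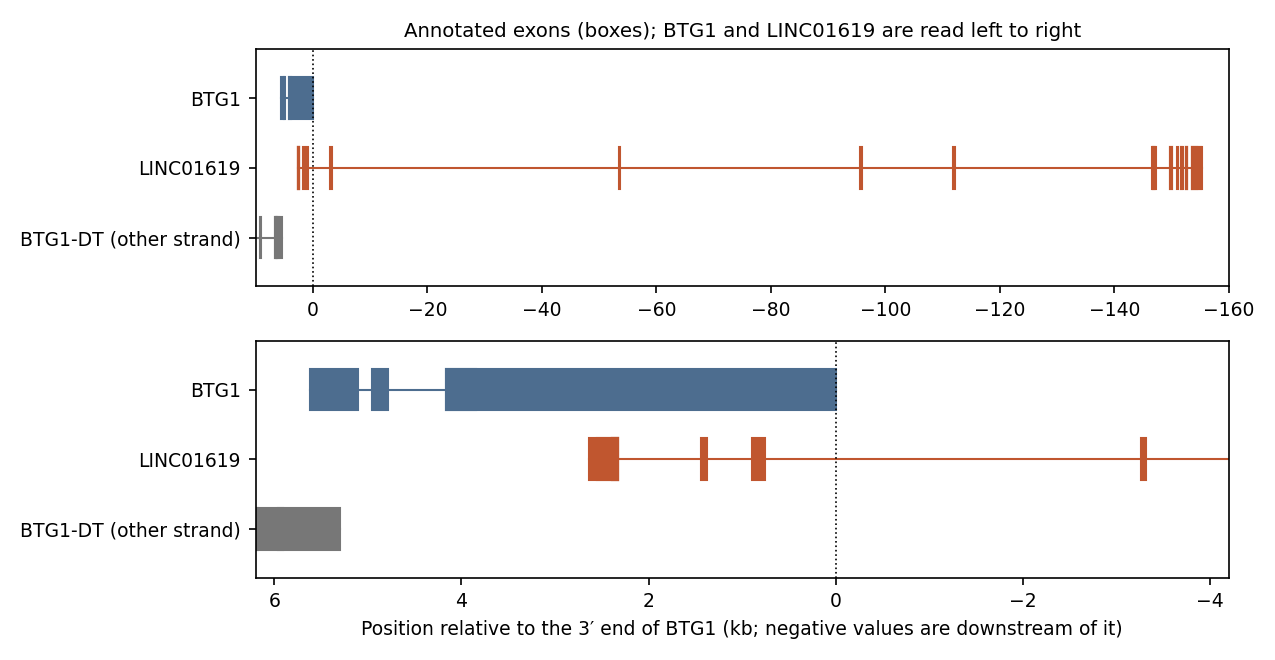
Exons of BTG1, LINC01619 and the divergent transcript BTG1-DT in GENCODE 29, by distance from the 3′ end of BTG1 (x axis, kb, negative downstream; dotted line at the end of BTG1), over the whole of LINC01619 (upper panel) and near BTG1 (lower panel). The first exons of LINC01619 sit inside the last exon of BTG1, and the rest lie from 3257 to 155302 bases downstream; exons narrower than the line are drawn at a minimum width.

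LINC01619 had 8, 9, 3 and 5 reads in DMSO libraries 1 to 4 and 96, 99, 112 and 111 reads in dTAGV1 libraries 1 to 4. It was thus near the limit of counting in every DMSO library and clearly counted in every dTAGV1 library, with no overlap. In CPM these were 2.19, 2.17, 0.800 and 1.24 against 27.2, 29.9, 33.0 and 26.3, with means of 1.60 ± 0.693 and 29.1 ± 3.03 (SD). The dTAGV1 level was close to that of BTG2 in the DMSO libraries. The log2 fold change was 4.15 with an SE of 0.23, a 17.8-fold difference. Of the 12618 tested genes, 15 had a larger increase. LINC01619 passed the filter on low counts only through the dTAGV1 libraries.

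Of the reads counted for BTG1 or LINC01619, the LINC01619 share was 1.28%, 1.29%, 0.464% and 0.779% in the DMSO libraries. In the dTAGV1 libraries it was 9.98%, 12.5%, 12.9% and 11.0%. The plot of this share by library carries exact 95% Clopper-Pearson intervals, which cover counting error only, since PCR copies may be among the reads. Mean shares were 0.952% ± 0.404 and 11.6% ± 1.34 (SD, n = 4 each). These shares restate the rise by which LINC01619 was chosen, and no comparison is drawn from them.

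Both genes of the overlapping pair were higher with dTAGV1. With the reads of both genes summed, the log2 fold change was 0.59. It is a description, because the reads added to those of BTG1 are those of the gene chosen for its rise. Reads that touched exons of both genes are not in the sum. Reads lost from BTG1 when strand was ignored, because they then met a gene on the other strand, were 5.15% ± 0.876 of its reads with DMSO and 6.40% ± 2.05 with dTAGV1.

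**Figure D3:**
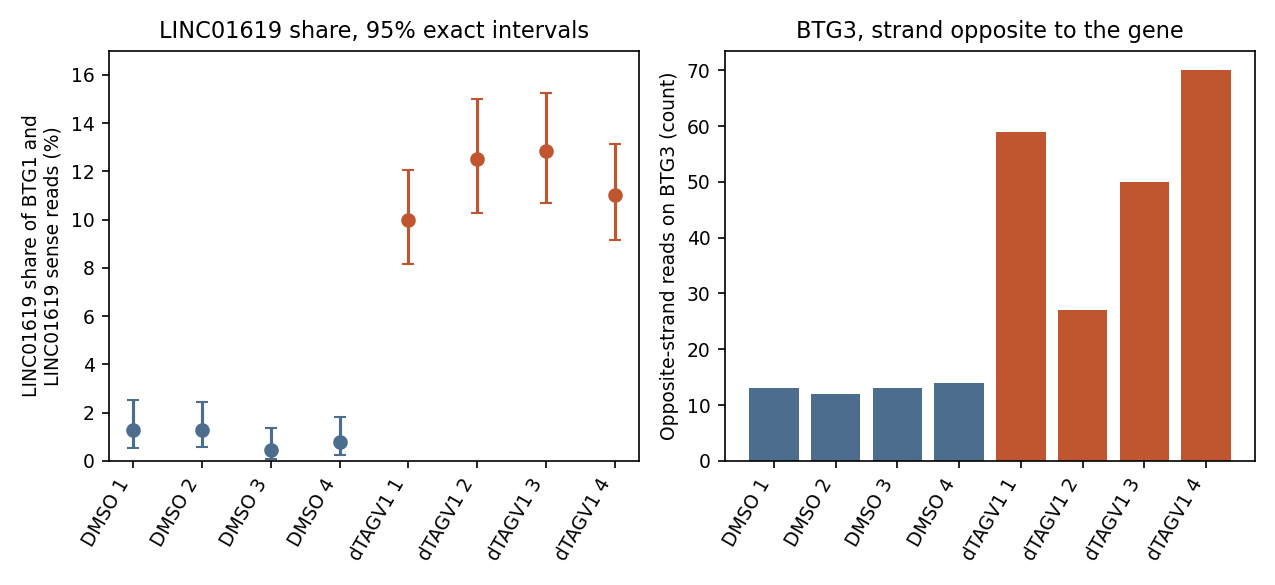
Left, the LINC01619 share of sense reads counted for BTG1 or LINC01619 (y axis, percent) in each of the 8 libraries, with exact 95% intervals; right, the number of reads on the strand opposite to BTG3 (y axis, count from 0) in the same libraries. DMSO libraries are blue and dTAGV1 libraries orange; the share is at most 1.29% with DMSO and at least 9.98% with dTAGV1, and BTG3 has 12 to 14 opposite-strand reads with DMSO and 27 to 70 with dTAGV1.

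Reads on the strand opposite to a gene were a separate count of the same libraries. Over all genes they made up 10.5% to 10.8% of the reads counted on either strand. BTG1, BTG2 and LINC01619 had 0 such reads in all 8 libraries, which allows up to 0.0517% for BTG1, 0.275% for BTG2 and 0.677% for LINC01619, against 3 reads. TOB1 had 0 to 4 and TOB2 had 3 to 14 a library, too few to be tested.

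BTG3 was the only family member with enough opposite-strand reads for a test, and they rose. There were 13, 12, 13 and 14 in DMSO libraries 1 to 4 and 59, 27, 50 and 70 in dTAGV1 libraries 1 to 4. The groups did not overlap, and dTAGV1 library 2 was the lowest of its group, as it was for the sense strand of BTG3. In CPM of opposite-strand reads the means were 30.8 ± 3.02 and 118 ± 33.7, a log2 fold change of 1.94 (SE 0.26, edgeR adjusted p = 1.69e-07 over 3324 genes). Of those genes 24% were higher, 24.5% were lower and 48.4% were called in either direction, and 22.2% were higher without overlap of the groups. The opposite strand made up 4.81% ± 1.08 of all reads on BTG3 with DMSO and 14.7% ± 3.40 with dTAGV1. With counts taken irrespective of strand, the log2 fold change of BTG3 was 0.42 and passed the test (adjusted p = 0.00229).

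Next to BTG3, the genes CXADR and BTG3-AS1 are annotated on the opposite strand. CXADR, which encodes a cell adhesion protein used by viruses as a receptor, runs towards BTG3 and ends 74 bases from its end. The sense level of CXADR averaged 51.0 ± 3.02 and 24.5 ± 2.33 CPM in the DMSO and dTAGV1 groups, for a log2 fold change of -1.05 (SE 0.11, edgeR adjusted p = 2.02e-08). CXADR thus fell while the reads on its strand inside BTG3 rose. BTG3-AS1 overlaps the other end of BTG3 by 1204 bases and had 0 sense counts in all 8 libraries. The part of either neighbour in the opposite-strand reads of BTG3 was not tested.

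Annotated neighbours that overlap a member or lie within 50 kb numbered 23, and few had enough sense counts for a test. BTG1-DT overlaps the start of BTG1 by 325 bases on the other strand and had 5 counts in the DMSO group and 12 in the dTAGV1 group. Reads over BTG1-DT on the strand of BTG1 numbered 134 and 202. In each library they equalled the reads that BTG1 lost when strand was ignored, so they add nothing to the counts of BTG1. TOB1-AS1 overlaps TOB1 by 1300 bases and had 12 and 5 counts. Counted reads of these antisense genes were thus few in this poly(A)-primed assay, and strand was kept in the counts used for the members.

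BTG/TOB proteins act through deadenylases and their scaffolds. Of 17 genes of this deadenylation machinery, all tested, 7 rose, 4 fell and 6 did not pass, which is 64.7% called, near the 57.9% of all tested genes. Without DMSO library 2 or 3, 7 rose and 2 fell. Their median log2 fold change was 0.19. CNOT4, an E3 ubiquitin ligase that associates with CCR4-NOT, rose most, from 40.9 ± 5.47 to 77.8 ± 7.46 CPM (log2 fold change 0.92, SE 0.11, edgeR adjusted p = 7.93e-08). CNOT9, a CCR4-NOT subunit that contacts RNA-binding proteins, fell most, from 79.3 ± 7.04 to 59.5 ± 4.42 CPM (-0.42, SE 0.09, adjusted p = 0.000503).

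The direct partners of the family, CNOT7, CNOT8 and PABPC1, are named here because of that role, with their values known. CNOT8 was at 35.5, 33.5, 23.2 and 34.1 CPM in the DMSO libraries and at 53.0, 57.7, 58.0 and 56.5 CPM in the dTAGV1 libraries. It rose without overlap, by 0.83 on the log2 scale (SE 0.12, edgeR adjusted p = 1.61e-06). CNOT7, its close relative, was at 240.5 ± 16.9 CPM in the DMSO group and at 206 ± 23.6 CPM in the dTAGV1 group. The first dTAGV1 library, at 240.4 CPM, lay inside the DMSO range and the other 3 below it. CNOT7 fell by 0.23 on the log2 scale (SE 0.08, adjusted p = 0.0189), a call lost without DMSO library 2 or 3 or dTAGV1 library 3 (adjusted p of 0.0664, 0.05006 and 0.05001). PABPC1 was at 7419 ± 339 and 7831 ± 1464 CPM and did not pass the test (log2 fold change 0.08, adjusted p = 0.563). Without dTAGV1 library 4 it passed, at 0.17 (adjusted p = 0.0319).

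A list of 22 genes held partners, regulators and outputs known for BTG/TOB proteins, and also the relative BTG4. Of these 20 were tested, without BTG4 and CPEB2. Among the tested genes 6 rose and 10 fell, which is 80% called, with a median log2 fold change of -0.22. Over all tested genes 57.9% were called, 29.4% higher and 28.5% lower. This list and that of the deadenylation machinery were drawn up with earlier results of these data known. Their shares are therefore descriptions. CPEB3, an RNA-binding protein that recruits TOB1 to its targets, rose most, from 11.4 ± 0.816 to 37.0 ± 5.00 CPM (log2 fold change 1.69, SE 0.15, edgeR adjusted p = 4.49e-10). E2F1, a transcription factor of S-phase entry, fell most, from 14.5 ± 2.03 to 3.63 ± 0.674 CPM (-1.98, SE 0.22, adjusted p = 4.45e-08). SMAD1, SMAD2 and SMAD3, signal transducers that TOB proteins can bind, rose by 0.48, 0.45 and 0.70 on the log2 scale (edgeR adjusted p of 0.000578, 1.32e-05 and 1.50e-08). SMAD4 and SMAD5 were at -0.20 and -0.08 and did not pass (adjusted p of 0.0779 and 0.448), though SMAD4 passed with library-size scaling (-0.28), a mean of at least 100 counts (-0.22) and counts irrespective of strand (-0.23). CCND1, the cyclin D1 gene and an output that family members are known to repress, fell from 669 ± 57.6 to 402 ± 33.5 CPM (-0.74, edgeR adjusted p = 9.62e-09; -0.41 with counts irrespective of strand). The SMAD genes and CCND1 were named after their values were seen.

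**Figure D4:**
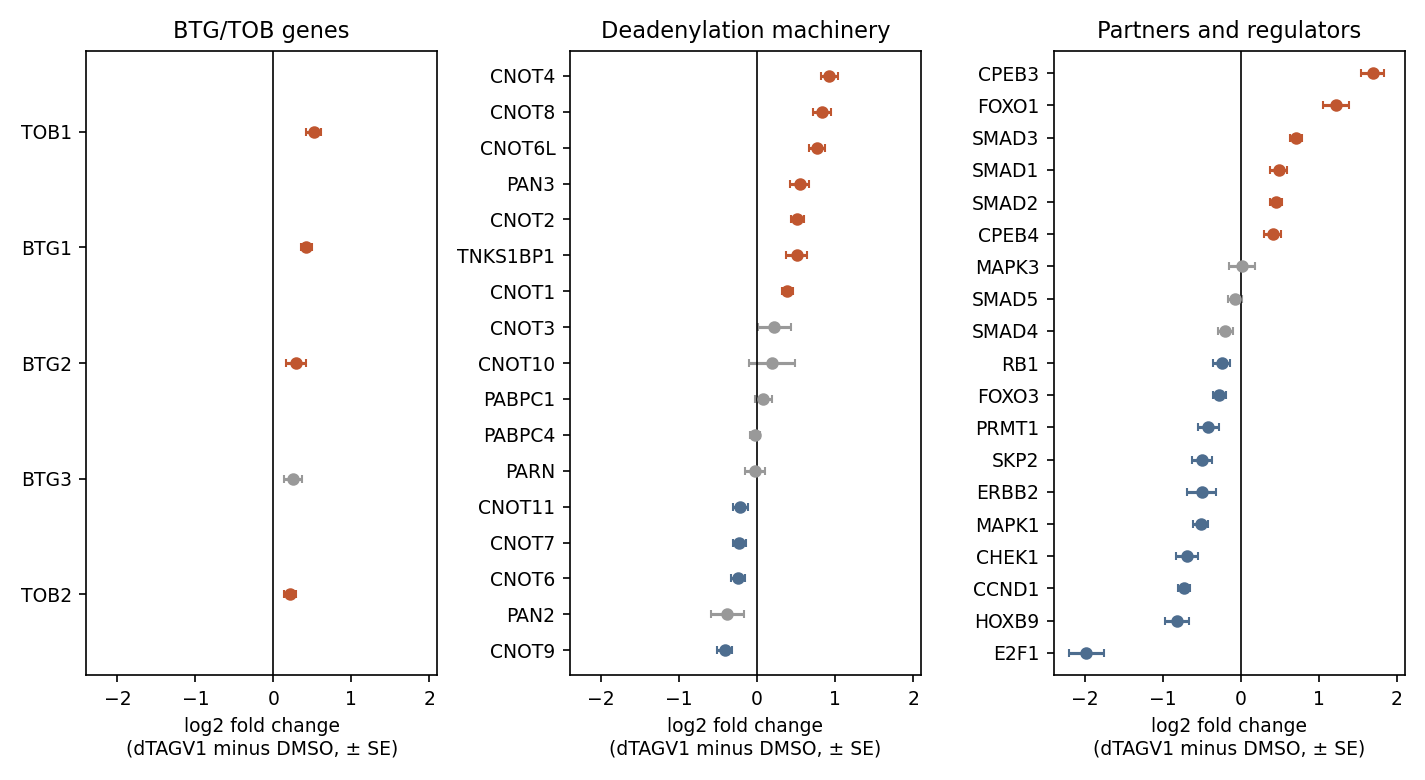
Sense log2 fold changes (x axis, dTAGV1 minus DMSO, with SE) of the BTG/TOB genes, the tested genes of the deadenylation machinery and most of the tested partners and regulators. Orange marks genes called higher, blue genes called lower and grey genes not called at an adjusted p under 0.05; the family genes lie between 0.22 and 0.52, while both other panels hold genes on either side of 0.

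For each member the 3 genes of most similar profile were taken by the root mean square difference of log2 CPM, centred on the DMSO mean, over the 8 libraries and 9242 candidates. For BTG1 these were TIAL1, SFSWAP and RLF, with differences of 0.033, 0.050 and 0.052 against a median of 0.39 over all candidates. TIAL1, which encodes an RNA-binding protein, had a log2 fold change of 0.42, as BTG1 did. For TOB1 they were REXO2, SCP2 and TOR1AIP1, at 0.057 to 0.063. For BTG2 they were TMEM128, C2orf68 and COQ4, at 0.080 to 0.099.

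For BTG3 they were ZNF326, SLU7 and ANKRD11, at 0.069 to 0.086, and for TOB2 they were RPS21P4, EPC2 and WASF2, at 0.048 to 0.058. The nearest genes of LINC01619 stood farther off. They were PRSS23, ZKSCAN8P1 and LINC01909, at 0.53, 0.59 and 0.65 against a median of 2.74. PRSS23 rose from 5.53 to 66.9 CPM and ZKSCAN8P1 from 2.60 to 29.3 CPM on average, as large rises from low levels. LINC01909 averaged 3.54 CPM in the DMSO group. These genes reached the required mean of 10 CPM only through the dTAGV1 libraries. The lists come from the contrast that chose LINC01619 and are descriptions over 8 libraries. For every member, the way the nearest genes were taken puts them below the median and close to its fold change.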

How the data were processed

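HCT116 RNA was extracted with Trizol and sequenced with the Lexogen QuantSeq forward 3′ kit, per the labels' protocols. The submitters' processing notes name FastQC, fastp, STAR, HTSeq, DESeq2 and GRCh38, without roles or versions. The deposited values are whole-number counts per gene in the layout of STAR, with columns for either, sense and opposite strand. The sense column was used for the forward kit, and 4 totals of reads given to no gene stayed out. Of 78932 identifiers, 61481 matched the table of gene names and 57356 matched GENCODE 29.

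Counts were tested with edgeR 4.0.16 in R 4.3.3 (filterByExpr, TMM, robust quasi-likelihood F test), with Benjamini-Hochberg adjustment over all tested genes and a threshold of 0.05. The SE is the absolute log2 fold change divided by the square root of F. Ratios of members used log2 of counts plus 0.5 and 2-sided exact permutation tests. Named genes were the members, the called genes at either end of each list, overlapping neighbours and the 3 nearest profiles, which had to reach 10 CPM and used a prior count of 2. The values of 2 listed genes are not reported here. Members and lists were chosen with earlier results of these data known. Replicates differed beyond sampling noise (chi-square per degree of freedom 1.82 to 5.09). Alternatives were DESeq2 1.42.0, limma-voom (limma 3.58.1), RLE and library-size scaling, non-robust dispersions, no filter, a mean of at least 100 counts, counts irrespective of strand, a replicate block and leaving out each library. Figures used matplotlib 3.10.9.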

Additional observations from a re-analysis of the deposited data

Results flagged for a closer look

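In 116 groups of 4 libraries, the lowest or highest library stood apart from the rest in 7, by a gap past the 95% critical value of Dixon's test. Chance flags about 1 in 20 such groups. Among the members, the opposite-strand level of BTG3 in DMSO library 2 was 26.2 CPM, below the other DMSO libraries, and the log2 ratio of TOB1 to TOB2 in dTAGV1 library 1 was -1.20, below the other dTAGV1 libraries. CNOT8 was low in DMSO library 3 at 23.2 CPM, and PABPC1 was low in DMSO library 2 at 6910.2 CPM. HOXB9 was low in dTAGV1 library 4 at 10.6 CPM. In DMSO library 1, MAPK3 was high at 30.6 CPM and RB1 was low at 56.6 CPM.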

How the results depend on the processing

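LINC01619, whose choice fixes its direction, and 9 alternatives of the pair tests that could not reach the threshold were left out of these counts. The other 183 alternative values were fold changes of the family genes and counts of genes or pairs called. Of these, 160 stayed, 19 lost a call, 3 gained one, 1 count moved and 0 reversed. A fold change stayed if it kept its side of the threshold and its direction. A count stayed if its ratio to the main count was small, whatever genes it held, and could not reverse. Called genes thus ranged over 9 to 12 for the deadenylation machinery, 12 to 17 for the partners and 2 to 4 for the neighbours. The numbers tested changed too. At a mean of at least 100 counts, 12 of 15 tested partners were called, beside 4120 of 6369 genes. Without a filter 4 of 15 tested neighbours were called, beside 8073 of 29925 genes. In the main run 3 of 4 tested neighbours were called, beside 57.9% of all tested genes. BTG2 lost its call with DESeq2 (0.28, adjusted p = 0.0905), RLE scaling (0.28, 0.0546), library-size scaling (0.22, 0.138), no filter (0.27, 0.0997), a mean of at least 100 counts (0.27, 0.0619) and counts irrespective of strand (0.23, 0.118). TOB2 lost its call with library-size scaling (0.14, 0.121), no filter (0.19, 0.0703) and counts irrespective of strand (0.18, 0.0524). BTG3 gained a call with counts irrespective of strand (0.42, 0.00229), which include its opposite-strand reads, and with the replicate block (0.25, 0.0385). With 1 library left out, log2 fold changes were 0.21 to 0.37 for BTG2, 0.15 to 0.31 for BTG3 and 0.17 to 0.26 for TOB2. The 5 family genes had positive values in each of the 17 alternatives, with 2 to 5 of them called. The causes were not tested.

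Under the filter at a mean of 100 counts, fewer genes were tested and 4120 were called. The replicate numbers were not taken as pairs: deviations of same-numbered libraries correlated at 0.131, -0.0176, 0.0232 and 0.0340, and 3 of 8 libraries correlated best with their own number. The replicate block called 7434 genes against 7302 without it. LINC01619 in the DMSO libraries rested on 3 to 9 reads each, so its fold change is less precise than that of BTG1.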
